A study of Mus musculus with 6 samples.

Results

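Chemokines and their receptors were described in sorted bone marrow cells of the mouse. The members were the genes with a platform symbol of Ccl, Cxcl, Ccr or Cxcr followed by digits, with Cx3cl1, Cx3cr1, Xcl1, Xcr1 and Ackr1 to Ackr4, read from probe sets with exactly 1 symbol and without Cxcl12. This gave 51 genes, 31 ligands and 20 receptors, of 18193 genes with such a probe set. The rule used names and no measured value, though it was chosen with earlier results of these data known. The arrays held RNA from 3 mice, each giving a Grem1+ and a Grem1- fraction, so there were 3 arrays per group. All animals carried Grem1;TdTomato on a C57BL/6J background, were aged 6 to 8 weeks, were labelled male and had received tamoxifen by mouth, which marks cells by recombination. The labels do not spell out the driver of the recombinase. Grem1+ cells were sorted for Grem1, the gene of the BMP antagonist Gremlin 1, and no further gate is stated for them. Grem1- cells had not recombined and were sorted as triple negative for CD45 (blood cells), CD31 (endothelium) and Ter-119 (erythroid cells). In such bulk samples, fewer cells of a type and less RNA per cell cannot be told apart.

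Chemokines are small secreted proteins that steer moving cells, and they are named CC, CXC, CX3C or XC after the spacing of their first cysteines. Their classical receptors signal through inhibitory G proteins, chiefly in leukocytes. Atypical receptors (Ackr) bind chemokines without that signal and take them up, and so set how much ligand is left around a cell. In marrow, Cxcr4 holds blood cells in the stroma, while ligands of Cxcr2 draw neutrophils out and Ccr2 lets monocytes leave.

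Values are log2 expression as the authors deposited them, and a gene was tested when a probe set of it was above log2 4 on at least 3 of the 6 arrays. The limit is a convention rather than a detection limit, and a value under it is called dim. Differences are Grem1+ minus Grem1- on the log2 scale, with the SE of a limma fit that has the mouse as a block, and adjusted p-values are Benjamini-Hochberg over all 10151 genes tested. Of the members, 18 of 51 were tested (35.3%, against 55.8% of all named genes), namely 10 ligands and 8 receptors. Just inside the limit lay Ccl28, at 4.18, 3.67 and 4.01 in Grem1- and 4.19, 3.93 and 4.02 in Grem1+ (mice 1, 2 and 3). Just outside lay Ccl2, at 3.96, 3.81 and 3.95 in Grem1- and 4.33, 4.15 and 3.94 in Grem1+.

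The labels were checked first. Grem1 stood at 3.69, 3.75 and 3.70 in Grem1- and at 4.49, 4.14 and 8.61 in Grem1+ in mice 1, 2 and 3. Ptprc, the gene of CD45, stood at 11.78 to 12.37 in the Grem1- fraction, against its gate, and at 7.29, 9.61 and 10.56 in Grem1+. By this probe set Ptprc differed by -2.94, and by its other passing probe set by -5.67. Pecam1, the gene of CD31, stood at 5.25, 4.23 and 4.91 in Grem1- and was dim in Grem1+, at 3.71, 3.39 and 2.81. By the probe sets used, Grem1 (2.04), Ptprc and Pecam1 (-1.50) did not pass, with limma adjusted p of 0.248, 0.0609 and 0.0587. The other probe set of Ptprc did pass (limma adjusted p = 0.0105). Without mouse 3, Grem1 differed by 0.60. Mouse 3 expressed Xist, which marks an inactive X chromosome, at 11.04 (Grem1-) and 10.60 (Grem1+), against the label male, while the other 4 arrays reached 2.99, so values without mouse 3 are given for the called members and the call counts of the gene lists. As a measure of RNA length, the Gapdh control probe sets differed between their 3' and 5' ends by 2.66 ± 0.34 for Grem1- and by 3.58 ± 0.51 for Grem1+ (log2, SD, n = 3), and its part in the results was not tested.

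Promoters are shown for Cxcl14 and Ackr3, the members higher in Grem1+, for Ccl9, the member with the largest fall, and for Cxcl1 and Cxcl2, adjacent genes whose differences had opposite signs but did not pass the threshold. Each is the 250 bases before the gene's start, 5′ to 3′ along the gene's strand, from RefSeq (GRCm38.p6). Capitals mark matches on either strand to 4 motifs, GGNNTTTCC (NF-kB, the inflammatory activator of many chemokine genes), TTGCNNAA (C/EBP), GAGGAAGT (PU.1, a myeloid factor) and TATAAA, an element of the core promoter.
Cxcl14 (chr13:56296552-56296801, minus strand): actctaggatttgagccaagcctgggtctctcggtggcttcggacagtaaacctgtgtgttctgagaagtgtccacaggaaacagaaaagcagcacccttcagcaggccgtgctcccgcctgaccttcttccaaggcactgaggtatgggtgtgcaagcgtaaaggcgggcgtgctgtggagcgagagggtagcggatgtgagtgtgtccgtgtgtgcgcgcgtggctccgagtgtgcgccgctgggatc
Ackr3 (chr1:90203730-90203979, plus strand): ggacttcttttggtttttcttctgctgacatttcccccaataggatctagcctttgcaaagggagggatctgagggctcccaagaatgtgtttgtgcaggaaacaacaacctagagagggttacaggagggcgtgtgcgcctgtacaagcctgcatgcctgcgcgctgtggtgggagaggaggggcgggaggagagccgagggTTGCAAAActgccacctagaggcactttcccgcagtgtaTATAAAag
Ccl9 (chr11:83578637-83578886, minus strand): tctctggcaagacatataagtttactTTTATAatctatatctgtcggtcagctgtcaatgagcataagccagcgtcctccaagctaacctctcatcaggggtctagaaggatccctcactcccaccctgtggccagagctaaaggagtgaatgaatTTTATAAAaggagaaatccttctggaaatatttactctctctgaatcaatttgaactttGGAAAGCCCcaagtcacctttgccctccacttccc
Cxcl1 (chr5:90890995-90891244, plus strand): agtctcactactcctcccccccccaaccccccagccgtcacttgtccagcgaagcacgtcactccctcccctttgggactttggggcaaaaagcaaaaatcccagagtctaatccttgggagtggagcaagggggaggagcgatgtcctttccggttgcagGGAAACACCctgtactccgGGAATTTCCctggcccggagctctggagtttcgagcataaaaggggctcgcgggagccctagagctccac
Cxcl2 (chr5:90903649-90903898, plus strand): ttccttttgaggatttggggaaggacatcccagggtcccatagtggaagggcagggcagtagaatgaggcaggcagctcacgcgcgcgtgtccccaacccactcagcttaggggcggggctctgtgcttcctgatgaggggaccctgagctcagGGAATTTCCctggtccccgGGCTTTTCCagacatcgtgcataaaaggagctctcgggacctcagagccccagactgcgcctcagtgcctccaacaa

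The NF-kB letters stood in 5 of the 17 tested members that have an entry in the promoter table, Ackr4, Ccl9, Cxcl1, Cxcl10 and Cxcl2, and in 4.93% of all 32851 windows of this length. Cxcl1 held GGAATTTCC 70 to 62 bases before its start, and Cxcl2 held the same letters 96 to 88 bases before its own. Each also held another match, GGAAACACC (the motif on the opposite strand) in Cxcl1 and GGCTTTTCC in Cxcl2. Ccl9 held GGAAAGCCC, also on the opposite strand, 35 to 27 bases before its start. The letters TATAAA stood in Ackr3, Ackr4, Ccl25, Ccl9 and Cxcr4 (12.4% of all windows), and in Ccl9 and Cxcr4 matches on both strands overlapped. The C/EBP letters stood in Ackr3 alone among the 17 (9.56% of all windows) and the PU.1 letters in 0 of 17 (2.44%). The windows of Cxcl14, Ccl6, Ccr2 and Cxcr2 held no match to the 4 motifs. The NF-kB letters were shortened from a longer form after the windows had been searched, so their share among members is no test. Members are counted by gene and the background by window. A match describes letters only and is no binding site.

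Most chemokine genes that changed were lower in Grem1+, with Cxcl14 and Ackr3 as the exceptions. Of the 18 tested members 2 were higher and 4 were lower. Among all genes tested, 11.7% were higher and 8.51% lower, 20.2% in all, and the 6 members make 33.3%. The ligands had a median difference of -0.22 and the receptors of -1.69, where all genes tested had 0.04. With only 18 members, these shares are descriptions.

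**Figure D1:**
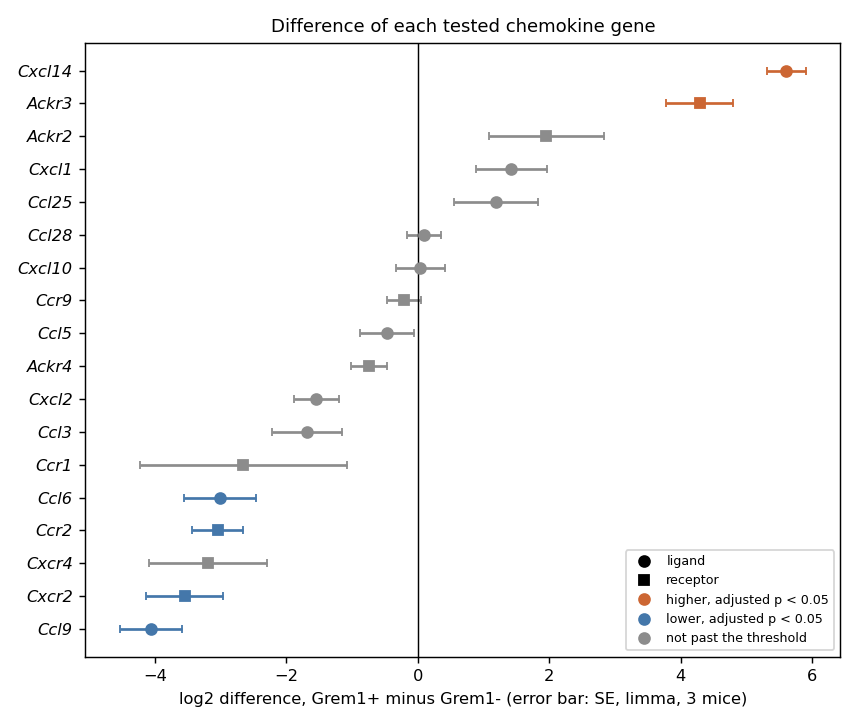
Log2 difference (Grem1+ minus Grem1-, x axis) of each tested chemokine gene (y axis), with the SE of the limma fit over 3 mice as the error bar, ligands as circles and receptors as squares. Orange and blue mark adjusted p under 0.05, with Cxcl14 (5.61) and Ackr3 (4.29) to the right and Ccl6, Ccr2, Cxcr2 and Ccl9 (-3.004 to -4.06) to the left.

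Among the CXC ligands, Cxcl14 had the largest difference of all 18 tested members. Cxcl14 encodes a chemokine made by epithelial and stromal cells. It stood at 3.78, 3.79 and 3.81 on the Grem1- arrays, all dim, and at 9.33, 9.84 and 9.04 on the Grem1+ arrays of mice 1, 2 and 3. On this probe set the groups lay far apart and each was tight, the Grem1- group among dim values. Mean Cxcl14 in Grem1+ was at least 42.3-fold higher by this probe set, set against the limit of log2 4. The fitted difference was 5.61 (SE 0.30, limma adjusted p = 0.00906). Its second probe set stood at 3.69, 6.10 and 3.33 in Grem1- and at 8.59, 8.21 and 8.24 in Grem1+, so the Grem1- array of mouse 2 was not dim there. That probe set differed by 3.98 (SE 0.69, limma adjusted p = 0.0306 over all probe sets), and by 4.90, 2.12 and 4.91 in mice 1, 2 and 3. Without mouse 3 and without the block, Cxcl14 differed by 5.80 (limma adjusted p = 0.0126).

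Cxcl1 and Cxcl2 encode ELR-type ligands of Cxcr2 that attract neutrophils. Cxcl1 stood at 9.11, 9.03 and 7.50 in Grem1- and at 10.29, 9.40 and 10.22 in Grem1+. Each Grem1+ array lay above every Grem1- array, and mouse 3 had the widest gap. With 1.42 (SE 0.54) Cxcl1 missed the threshold (limma adjusted p = 0.150), and leaving out mouse 3 gave 0.77. The 3 probe sets of Cxcl1 gave 1.41 to 1.44. Cxcl2 went the other way, from 9.90, 8.84 and 9.94 in Grem1- to 7.75, 7.85 and 8.46 in Grem1+. Its Grem1+ arrays all lay below its Grem1- arrays, but the difference of -1.55 (SE 0.34) fell just short of the threshold (limma adjusted p = 0.0502), and over 16 alternatives that p ran from 0.0325 to 0.215. Cxcl2 passed in 7 of the 10 alternatives that keep all 3 mice and in 0 of the 6 that leave a mouse out. By mouse, Cxcl1 differed by 1.17, 0.38 and 2.72 and Cxcl2 by -2.16, -0.99 and -1.48. Opposite signs thus stood in 3 of 3 mice for these adjacent genes, and the gap between them was not tested.

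Cxcl10, an interferon-induced ligand of Cxcr3, stood at 4.85, 4.97 and 5.89 in Grem1- and at 5.68, 4.65 and 5.50 in Grem1+. The groups overlapped, with a difference of 0.04 (SE 0.37, limma adjusted p = 0.957) whose sign turned under median centring and without mouse 1.

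**Figure D2:**
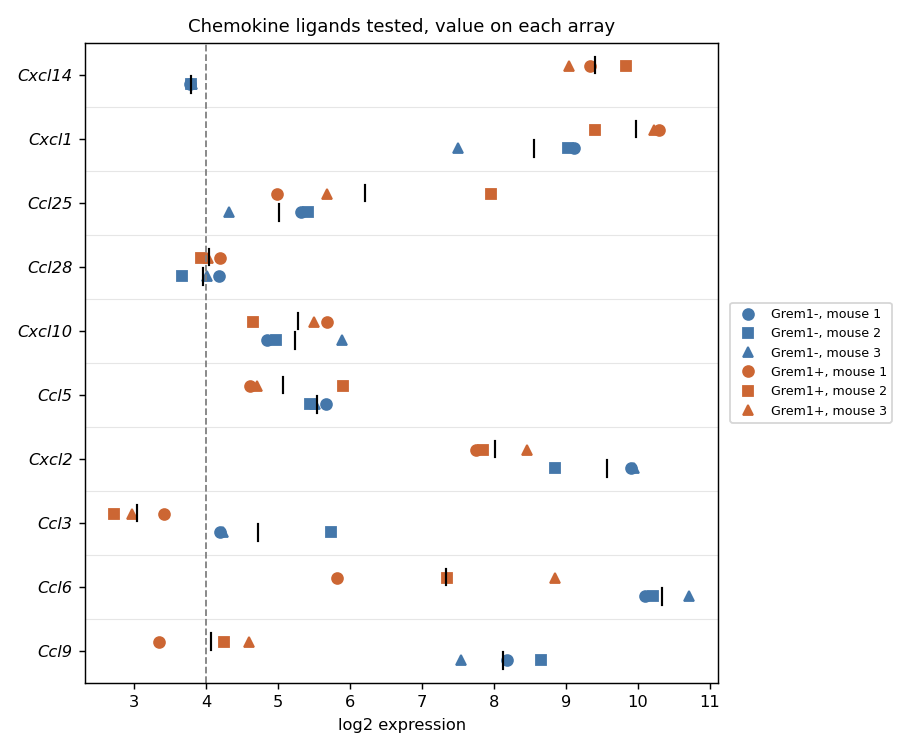
Log2 expression (x axis) of the 10 tested ligands on each array, Grem1- in blue and Grem1+ in orange, with a symbol per mouse, the group mean as a black bar and the log2 4 limit dashed. Cxcl14 lies wholly to the right in Grem1+, Cxcl1 lies to the right with a smaller gap, and Cxcl2, Ccl3, Ccl6 and Ccl9 lie to the left.

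The CC ligands were led by Ccl6 and Ccl9, ligands of Ccr1 made by myeloid cells, whose genes lie next to each other in RefSeq. Ccl9 stood at 8.18, 8.64 and 7.54 in Grem1- and at 3.34, 4.25 and 4.59 in Grem1+. The groups did not overlap and 1 Grem1+ array was dim. The difference of -4.06 (SE 0.47, limma adjusted p = 0.0159) was -3.84 with dim values set to log2 4. Another probe set of Ccl9 did not pass the filter and differed by -0.80. It stood at 3.56, 3.85 and 4.61 in Grem1- and at 3.09, 3.10 and 3.42 in Grem1+. Ccl6 stood at 10.10, 10.21 and 10.71 in Grem1- and at 5.82, 7.35 and 8.84 in Grem1+. The Grem1+ arrays spread widely, with mouse 1 lowest and mouse 3 highest, and all lay below Grem1-. Ccl6 differed by -3.004 (SE 0.55, limma adjusted p = 0.0338). A second probe set of Ccl6 gave -3.05 (SE 1.001) and did not pass (limma adjusted p = 0.113 over all probe sets). Without mouse 3 and without the block, Ccl9 differed by -4.62 and Ccl6 by -3.57 (limma adjusted p = 0.0171 and 0.0377). Ccl6 lost its call without the block when mouse 1 (-2.36, adjusted p = 0.0859) or mouse 2 (-3.08, adjusted p = 0.169) was left out, and with every probe set tested (adjusted p = 0.0784).

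Ccl3, an inflammatory ligand of Ccr1 that lies next to Ccl6, stood at 4.20, 5.73 and 4.24 in Grem1- and was dim on all Grem1+ arrays (3.41, 2.72 and 2.97). It differed by -1.69 (SE 0.53), or -0.72 with dim values set to log2 4, and did not pass (limma adjusted p = 0.104). Ccl5, an attractant of T cells and monocytes, overlapped between groups, at 5.44 to 5.66 in Grem1- and 4.61 to 5.90 in Grem1+ (-0.47, SE 0.41). Ccl25, the ligand of Ccr9, stood at 5.32, 5.41 and 4.31 in Grem1- and at 4.98, 7.96 and 5.68 in Grem1+. Its high value in Grem1+ came from mouse 2, and the gene missed the threshold at 1.19 (SE 0.63). Ccl28 differed by 0.09 (SE 0.26). The limma adjusted p-values of Ccl5, Ccl25 and Ccl28 were 0.485, 0.266 and 0.842. Over the tested ligands, 2 had every Grem1+ array above every Grem1- array, 4 had them below and 4 overlapped, where 23.2% of all genes tested were above and 19.8% below.

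Of the 5 tested signalling receptors 2 were lower in Grem1+ (40%, against 8.51% of all genes tested) and 3 did not pass. Their median difference was -3.05. Cxcr2, the receptor of neutrophils for Cxcl1 and Cxcl2, stood at 8.87, 9.16 and 9.40 in Grem1- and at 4.53, 4.88 and 7.38 in Grem1+. All Grem1+ arrays lay below Grem1-, with mouse 3 well above the other two. The difference was -3.55 (SE 0.59, limma adjusted p = 0.0280). Without mouse 3 and without the block it was -4.31 (adjusted p = 0.0139), and without the block it lost its call when mouse 1 (-3.15, adjusted p = 0.103) or mouse 2 (-3.18, adjusted p = 0.145) was left out. It also lost it with every probe set tested (adjusted p = 0.0674).

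Ccr2, the receptor of inflammatory monocytes for Ccl2, stood at 7.66, 7.20 and 6.06 in Grem1- and at 4.005, 3.92 and 3.86 in Grem1+. The Grem1+ arrays lay at the dim limit and far from Grem1-. The difference was -3.05 (SE 0.39, limma adjusted p = 0.0183), or -2.97 with dim values set to log2 4. The 3 passing probe sets of Ccr2 gave -2.47 to -3.77. Without mouse 3 and without the block Ccr2 differed by -3.47 (adjusted p = 0.0177), and without the block it lost its call when mouse 2 was left out (-2.93, adjusted p = 0.0667).

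Ccr1, a receptor of monocytes and neutrophils for Ccl3 and Ccl5, gave unlike results from its probe sets. The probe set with the higher mean stood at 6.29, 8.09 and 8.51 in Grem1- and at 8.09, 3.08 and 3.77 in Grem1+, so mouse 1 went up and the others went down. It differed by -2.65 (SE 1.57, limma adjusted p = 0.311), which did not pass, and by -4.88 without mouse 1. The other probe set stood at 6.89, 6.75 and 7.20 in Grem1- and was dim on all Grem1+ arrays, at 2.19, 1.86 and 2.38. It differed by -4.81 (SE 0.28, limma adjusted p = 0.00989 over all probe sets). Ccr1 therefore counts as not past the threshold here by the rule on probe sets, and would count as lower by the other probe set.

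Cxcr4, the Cxcl12 receptor that keeps blood cells in marrow, stood at 11.79, 11.81 and 11.74 in Grem1- and at 6.19, 9.32 and 10.24 in Grem1+. The Grem1- arrays agreed within 0.04 (SD) and the Grem1+ arrays spread by 2.12 (SD, n = 3), all below Grem1-. Cxcr4 missed the threshold at -3.19 (SE 0.90, limma adjusted p = 0.0818), with -1.99 when mouse 1 and -4.04 when mouse 3 was left out. It passed with a prior variance that follows the mean (limma adjusted p = 0.0488). Ccr9, the receptor for Ccl25, stood at 5.10, 4.04 and 4.38 in Grem1- and at 4.70, 3.92 and 4.30 in Grem1+ and differed by -0.20 (SE 0.26, limma adjusted p = 0.635). Of its 5 probe sets only that one passed the filter.

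**Figure D3:**
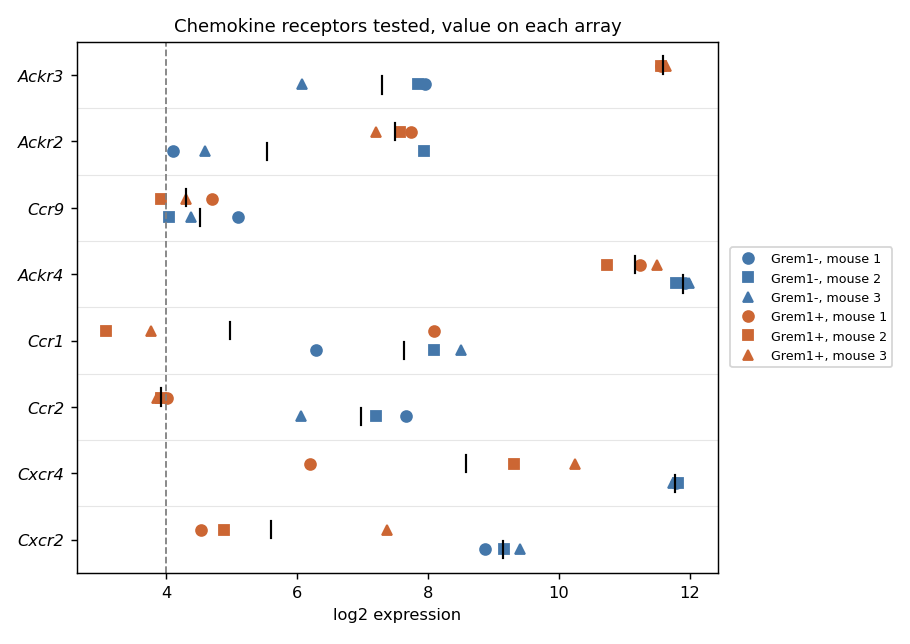
Log2 expression (x axis) of the 8 tested receptors on each array, Grem1- in blue and Grem1+ in orange, with a symbol per mouse, the group mean as a black bar and the log2 4 limit dashed. The 3 Grem1+ arrays of Ackr3 coincide near 11.6 to the right of Grem1-, while Cxcr4 and Cxcr2 spread widely in Grem1+ to the left of it.

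Of the 3 tested atypical receptors Ackr3 was higher (33.3%, against 11.7% of all genes tested), while Ackr2 and Ackr4 did not pass. Ackr3, which takes up Cxcl12 and Cxcl11, stood at 7.95, 7.84 and 6.08 in Grem1- and at 11.55, 11.56 and 11.63 in Grem1+. The Grem1+ arrays agreed within 0.05 (SD, n = 3) and lay above every Grem1- array. The difference was 4.29 (SE 0.51, limma adjusted p = 0.0164), and without mouse 3 and without the block it was 3.66 (adjusted p = 0.0155). Its single probe set is of a kind that other transcripts may share, so Ackr3 has no value when such probe sets are left out.

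Ackr2, a scavenger of inflammatory CC ligands, stood at 4.10, 7.93 and 4.60 in Grem1- and at 7.74, 7.56 and 7.20 in Grem1+. The Grem1+ arrays were alike, and the Grem1- array of mouse 2 lay above them all. Ackr2 missed the threshold at 1.96 (SE 0.87, limma adjusted p = 0.200). It stood at 3.12 without mouse 2 and then passed if the block was also dropped (adjusted p = 0.0252). The other 2 probe sets of Ackr2 were dim on all arrays, at 2.89 to 3.55. Ackr4, a scavenger of Ccl19, Ccl21 and Ccl25, stood at 11.92, 11.78 and 11.98 in Grem1- and at 11.24, 10.73 and 11.50 in Grem1+, so it was bright everywhere. All Grem1+ arrays lay slightly lower, by -0.74 (SE 0.28), which did not pass (limma adjusted p = 0.146), but did with a prior variance that follows the mean (adjusted p = 0.0303). A second probe set gave -0.67, while another stood at 2.85 to 4.08 and did not pass the filter. In RefSeq Ackr4 lies within the span of Acad11, and whether the bright probe sets read another transcript was not tested.

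**Figure D4:**
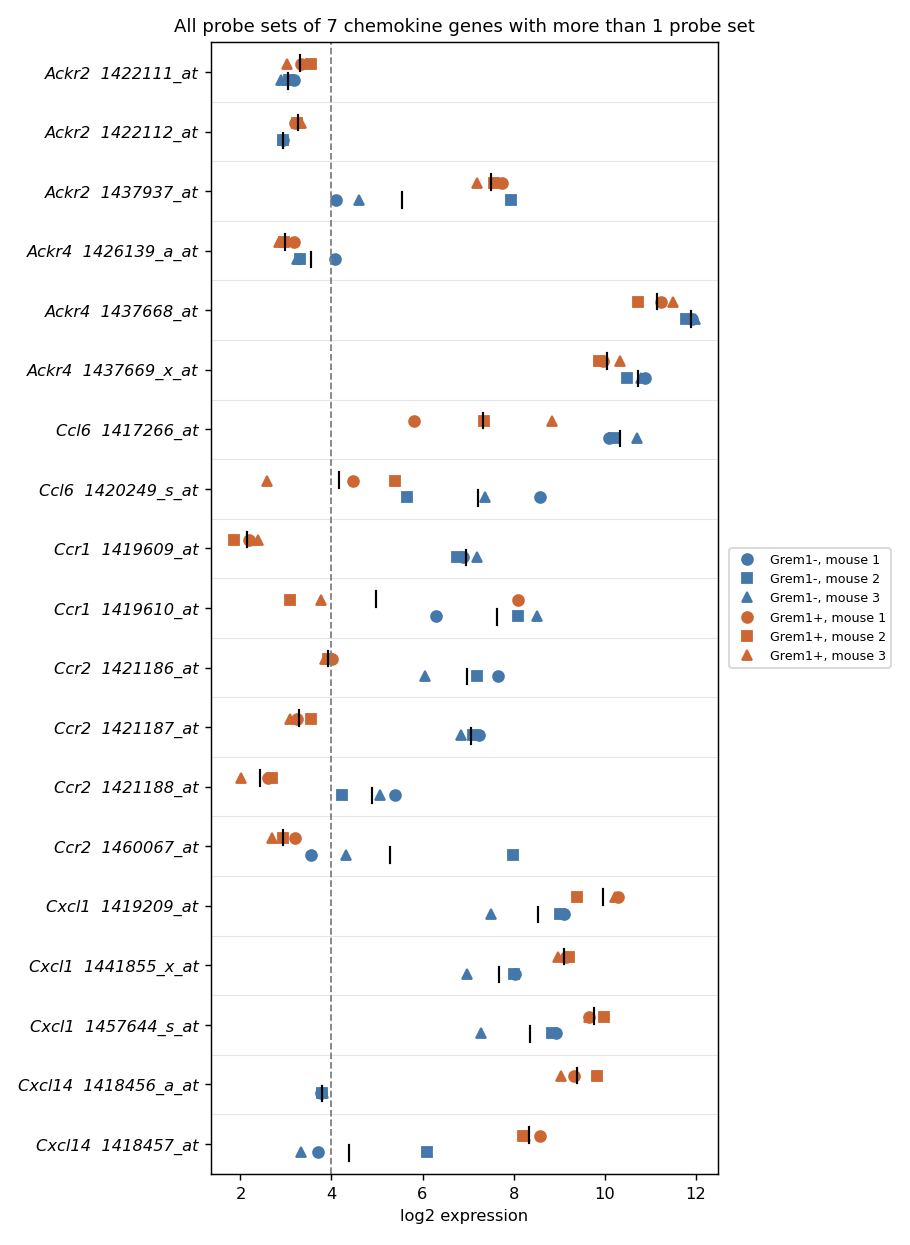
Log2 expression (x axis) of every probe set of 7 members with more than 1 probe set (y axis) on each array, with colours, symbols and bars as in the plots by array. Probe sets of Cxcl1 and Ccr2 point the same way, whereas the 2 of Ccr1 differ in the Grem1+ array of mouse 1 and those of Ackr2 and Ackr4 differ in brightness.

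The remaining 33 members, 21 ligands and 12 receptors, did not pass the filter. Of these, 16 ligands stayed dim on all 6 arrays by their brightest probe set: Ccl1, Ccl7, Ccl8, Ccl11, Ccl12, Ccl17, Ccl20, Ccl22, Ccl24, Cxcl5, Cxcl9, Cxcl11, Cxcl13, Cxcl15, Cxcl17 and Xcl1. So did 11 receptors: Ccr3, Ccr4, Ccr6, Ccr7, Ccr8, Ccr10, Cx3cr1, Cxcr3, Cxcr5, Cxcr6 and Xcr1. These include receptors of lymphocytes (Ccr7, Cxcr3, Cxcr5) and the homeostatic ligand Cxcl13. A dim value is a bound and does not show that a gene was off. Ccl2, Ccl4, Cx3cl1, Cxcl16, Cxcl3 and Ackr1 each rose above log2 4 on 1 or 2 arrays. Cxcl16 did so in Grem1-, at 4.72 and 4.38 in mice 1 and 2. Cxcl3, another Cxcr2 ligand, reached 7.56 on the Grem1+ array of mouse 1 and stood at 3.76 or lower on the other 5 arrays.

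Other genes of the pathway came from lists of the signalling chain and its surroundings. Of 36 tested genes of chemokine receptor signalling and migration, 15 were lower (41.7%, against 8.51% of all genes tested) and 21 did not pass, with a median of -2.49. Of the 15, 6 (Coro1a, Fermt3, Itgb2, Rac2, Vav1 and Was) are also among the 9 lower pan-haematopoietic markers. Arrb2, an arrestin that shuts off receptors, differed by -5.47 (SE 0.65). Gng2, a G protein subunit, differed by -5.02 (SE 0.73), and Vav1, a Rac activator, by -4.46 (SE 0.46). Pik3r6, a regulatory subunit of PI3-kinase gamma, was at least 9.78-fold lower. Those that did not pass ranged from Elmo1, a Rac activator subunit (-4.30, SE 1.08), to Gnb1, a G protein beta subunit (0.92, SE 0.29). The limma adjusted p-values of the called genes in this list were at most 0.0318.

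Of 2 tested chemokine genes with other names, 1 was lower (50%, against 8.51% of all genes tested). This was Pf4, the CXC ligand of platelets, at -2.96 (SE 0.49, limma adjusted p = 0.0278). Pf4 is also the 1 lower gene of the megakaryocyte markers, and Cklf did not pass (-1.60, SE 0.39). Of 10 other chemoattractant receptors 4 were lower (40.0%, against 8.51%) and 6 did not pass, with a median of -1.12. Ptger2, a prostaglandin receptor, was at least 24.9-fold lower, S1pr4 differed by -2.46 (SE 0.32), and C5ar1, the complement receptor of neutrophils, by -2.21 (SE 0.35). S1pr1, which guides lymphocyte egress, was at least 1.82-fold lower. These 4 had limma adjusted p-values of at most 0.0390.

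Of 19 tested genes of NF-kB and its inducers, 1 was higher (5.26%, against 11.7% of all genes tested) and 4 lower (21.1%, against 8.51%), with a median of -0.37. The higher gene was Il1r1, the receptor of interleukin 1, at 5.59, 5.65 and 6.15 in Grem1- and at 10.68, 10.15 and 10.26 in Grem1+. It differed by 4.57 (SE 0.32, limma adjusted p = 0.00919). Il1b, which encodes interleukin 1 beta, was lower by -2.10 (SE 0.26, limma adjusted p = 0.0175). The NF-kB inhibitors Nfkbie and Tnfaip3 differed by -4.69 (SE 0.40) and -4.38 (SE 0.78), and the interferon gamma receptor Ifngr1 by -2.16 (SE 0.27).

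Of 14 tested enzymes that can cut chemokines, 2 were higher (14.3%, near the 11.7% of all genes tested) and 6 lower (42.9%, against 8.51%), with a median of -0.88. Of the 6 lower, 4 (Ctsg, Elane, Mmp8 and Prtn3) are also granulocyte markers. The collagenase Mmp13 was higher by 4.24 (SE 0.38) and the gelatinase Mmp2, which trims Cxcl12 and Ccl7, by 4.01 (SE 0.33). The neutrophil enzymes Mmp8 (-5.73, SE 0.52), Ctsg (-5.68, SE 1.11) and Mmp9 (-4.86, SE 0.51) were lower. For these 5 genes limma gave adjusted p of 0.0390 or less.

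Without mouse 3 and without the block, as added after the data had been seen, 13 of the 15 called signalling genes kept their call (lost were Pik3cd and Was), and so did 3 of 4 attractant receptors (lost was S1pr1, at -1.30 with an adjusted p of 0.119), 5 of 5 genes of the NF-kB list and 7 of 8 enzymes (lost was Adam10). Pf4 then differed by -3.54 (limma adjusted p = 0.0267) and Il1r1 by 4.79 (limma adjusted p = 0.0136).

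Many markers of blood cells were lower in Grem1+, as were 4 of the chemokine genes tested. Among all genes tested, 8.51% were lower and 11.7% higher, to set beside the counts here. Of 13 tested granulocyte markers 10 were lower and 3 did not pass, and their summed level (log2 of the sum of linear values) ran from 14.71 to 14.80 in Grem1- and stood at 11.73, 13.04 and 13.56 in Grem1+ in mice 1, 2 and 3. Of 12 pan-haematopoietic markers 9 were lower, with sums of 14.45 to 14.56 and of 11.25, 11.80 and 12.89. Of 8 monocyte and macrophage markers 2 were lower, with sums of 12.38 to 12.59 and of 9.96, 11.36 and 11.46, and Adgre1, Mrc1, C1qa and C1qc were not tested. These sums rose from mouse 1 to mouse 3 among Grem1+ arrays, but the median marker levels did not rise in that order. In mice 1, 2 and 3 the Grem1+ medians were 4.98, 4.45 and 8.38 for granulocyte markers. They were 5.97, 5.70 and 6.57 for pan-haematopoietic markers and 3.67, 4.99 and 4.35 for monocyte and macrophage markers. Of the 4 lower members, Ccl6, Ccl9 and Cxcr2 rose from mouse 1 to mouse 3 among Grem1+ arrays by the probe sets used. The second passing probe set of Ccl6 had another order there, at 4.48, 5.40 and 2.59, and Ccl9 was dim in mouse 1. Ccr2 was lowest in mouse 3 by its 3 passing probe sets, with Grem1+ values at or under the dim limit. Of 6 B lineage markers 3 were lower (sums of 10.62 to 10.87 and of 6.45, 7.45 and 6.98). In T and NK cells 1 of 4 was lower (sums of 6.31 to 6.43 and of 6.18, 6.76 and 6.04). In erythroid cells 2 of 4 were lower (12.17 to 12.33 and 11.47, 10.67 and 10.95). In megakaryocytes 1 of 3 was lower (6.47 to 8.31 and 6.28, 5.54 and 5.71). The Grem1+ sums of these lists and of the B lineage were not highest in mouse 3. In endothelium 0 of 3 passed in limma, with 2 at an unadjusted p under 0.05. Many markers of skeletal cells were higher, as were Cxcl14 and Ackr3. Of 12 chondrocyte markers 11 were higher, with sums of 12.44 to 12.93 in Grem1- and 15.15 to 15.39 in Grem1+, and of 7 osteoblast and 8 marrow stroma markers 4 each were higher. Without mouse 3 and without the block, 10 granulocyte and 7 pan-haematopoietic markers were lower and 9 chondrocyte and 4 osteoblast markers higher, while 2 of 8 stroma markers were higher, and 1 of 8 monocyte and macrophage, 2 of 6 B lineage and 0 of 4 T and NK markers were lower in limma. In that fit 525 of all genes tested were lower and 769 higher. The part of these cell types in the chemokine differences was not tested.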

How the data were processed

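RNA of the 6 sorted samples was amplified (NuGEN Ovation One-Direct) and hybridised, per the labels' protocols. The authors deposited log2 expression values per probe set, made with GCRMA per the submitters' processing notes, with version and settings not given in the sources used here. GCRMA corrects background, normalizes arrays and summarises probes. The scanner files were not used here. That the scale is log2 was inferred from the range of values, and array medians ran from 3.74 to 3.81.

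Of 45101 probe sets, 34945 had 1 symbol in the platform annotation, 932 had several and 9160 were unnamed here. After the filter, each of 10151 genes was represented by its passing probe set of highest mean. limma 3.58.1 (R 4.3.3; lmFit and eBayes, two-sided) used the mouse as a block, since the series describes the fractions as matched within mice. Deviations of same-numbered arrays correlated at 0.014, 0.074 and 0.046. Degrees of freedom were 2 (residual) and 2.10 (prior), and 3 arrays a group limit the precision. No pair of arrays shared over 0.00222% of values to 1e-06. Where every array of the lower group was dim, the fold is a bound for the probe set used, from the mean of the higher group against log2 4. The fits were tested on simulated data.

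Every member is named; from each pathway list up to 4 called genes with the largest difference were named. Xist, Elmo1, Gnb1, Mmp2, Il1b and Cklf were named after their values were seen. Members and lists were chosen with earlier results of these data known. The 16 alternatives varied block, mice, filter, floor, probe set, normalization and prior. RefSeq promoters were matched by symbol for 38 of 51 members. The motif letters and the promoters shown were chosen after expression values had been seen, and the NF-kB motif was shortened from a longer form after the windows had been searched with that form.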

Additional observations from a re-analysis of the deposited data

Results flagged for a closer look

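Cxcl3 did not enter the main comparison, because only 1 array was above the limit. On the Grem1+ array of mouse 1 it stood at 7.56, while the 3 Grem1- arrays lay at 2.12 to 2.51 and the Grem1+ arrays of mice 2 and 3 at 3.76 and 2.28. It drew attention as a signal above the control level in data that the main test left out. The difference has no replicate at that level.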

How the results depend on the processing

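With the replicate block kept and a mouse left out, limma had 1 residual degree of freedom and called 0 genes of any kind, while 1601 to 1668 of all genes were higher and 1280 to 1350 lower at an unadjusted p under 0.05, among them 1 to 2 ligands higher and 3 to 4 lower, and 1 to 2 receptors higher and 2 to 4 lower. With a mouse left out and no replicate block, 767, 764 and 769 genes were higher and 507, 422 and 525 lower (without mice 1, 2 and 3), with 1 ligand higher and 1 to 2 lower, and 1 to 2 receptors higher and 0 to 2 lower. The median over ligands then ran from -0.46 to -0.08 and over receptors from -1.38 to -1.03. With no replicate block and all mice, 1078 of all genes and 4 ligands were lower. Cxcl2 (adjusted p = 0.0369) and Ccl3 (adjusted p = 0.0495) then passed in limma. With dim probe sets kept in, 500 of all genes, 1 ligand and 1 receptor were lower, and the receptor median was -0.11. With the filter at log2 6 the medians were -1.55 for ligands and -2.65 for receptors, where fewer members were tested. With the most variable probe set 964 of all genes, 1 ligand and 3 receptors were lower, as Ccr1 then passed (limma adjusted p = 0.0101). With the prior variance as a trend 1063 of all genes, 3 ligands and 4 receptors were lower. Without shared probe sets Ackr3 dropped out, so 0 receptors were higher and the receptor median was -2.65. The sign of Cxcl10 turned without mouse 1 (-0.35) and under median centring (-0.037), but not without mouse 2 (0.22) or mouse 3 (0.25). No other tested member changed sign under any of the 16 alternatives. Cxcl14, Ackr3 and Ccl9 stayed past the threshold in limma in every alternative that gave them a value, except where the block was kept and a mouse was left out.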
